A study of Mus musculus with 6 samples.

Results

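The nucleoplasmin genes Npm1, Npm2 and Npm3 and 4 processed pseudogenes of Npm1 (Gm14681, Gm5611, Gm15484 and Gm7289) were followed in mouse KP cells in which a hairpin RNA against Npm1 was induced. These 7 genes were taken by symbol from the 48526 gene identifiers of the count files, and all 7 were found. Npm1 was the target of the hairpins, and the members were selected on their counts per 1000000 (CPM) with and without doxycycline, so those levels are given as a description, with no test. The KP cells, which the labels do not describe further, had been transfected with pLKO.1-Tet on vectors carrying shNpm1-3, shNpm1-4 or shNpm1-5 and selected with puromycin into 3 stable lines, called line 3, line 4 and line 5 here after their hairpins. Each line gave 1 library of total RNA after 100 ng/ml doxycycline, the antibiotic that turns the hairpin on, and 1 library with no doxycycline, so that there were 3 libraries per group and the lines served as replicates. All libraries came from cells with a hairpin vector, and no library came from doxycycline-treated cells lacking a hairpin against Npm1, so the drug and the knockdown cannot be told apart. Each line has a different hairpin and 1 library per condition, so a hairpin and a line cannot be told apart either.

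Nucleoplasmins are histone chaperones, acidic proteins that bind basic histones and hand them to DNA. They share a core domain through which they assemble into rings, and carry stretches of acidic residues. Npm1 (nucleophosmin, B23) is abundant in the nucleolus, where it takes part in the assembly and export of ribosomal particles, and it also binds the tumour suppressor ARF. Npm2 is known in mouse as an oocyte protein that acts on sperm chromatin after fertilisation, and Npm3 is a smaller, widely expressed member that binds Npm1. A processed pseudogene is a messenger RNA copied back into DNA and inserted elsewhere, so it carries the exons of its parent without the introns. Reads from such a copy can resemble those of the parent gene closely.

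The 3 nucleoplasmin genes lie on different mm10 chromosomes: Npm1 (ENSMUSG00000057113) on chromosome 11 at 33152287 to 33163206, Npm2 (ENSMUSG00000047911) on chromosome 14 at 70647302 to 70659244, and Npm3 (ENSMUSG00000056209) on chromosome 19 at 45747734 to 45749591, each on the minus strand. Their main annotated transcripts hold 11, 9 and 6 exons and coding sequences of 292, 207 and 175 codons, not counting the stop codon. The coding sequences share no run of identical bases longer than 14 (Npm1 and Npm2), 9 (Npm1 and Npm3) or 11 bases (Npm2 and Npm3), so the 3 genes are well separated by sequence. The windows of 30 codons richest in acidic codons, taken from the GENCODE transcripts, are shown because they set Npm3 apart and because the pseudogenes differ from Npm1 there, with capitals marking the acidic codons (those that begin with GA):
Npm1: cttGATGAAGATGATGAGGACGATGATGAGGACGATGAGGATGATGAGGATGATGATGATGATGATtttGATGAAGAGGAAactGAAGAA
Npm2: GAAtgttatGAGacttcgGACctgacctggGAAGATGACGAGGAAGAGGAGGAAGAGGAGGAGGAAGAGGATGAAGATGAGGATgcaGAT
Npm3: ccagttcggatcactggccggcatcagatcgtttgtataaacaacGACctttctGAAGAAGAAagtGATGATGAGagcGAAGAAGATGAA
In Npm1 27 of the 30 codons are acidic (codons 158 to 187), with an unbroken run of 21. In Npm2 22 of 30 are acidic (codons 115 to 144), with a run of 18, and in Npm3 11 of 30 (codons 130 to 159), with no run in its coding sequence longer than 5.

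A search of the annotated mouse transcripts with the Npm1 transcript found 23 processed pseudogenes, 15 of which are among the identifiers of the count files. The 4 studied here are the closest of these 15. Gm14681 (ENSMUSG00000081603, chromosome X, 66778442 to 66778852, minus strand) is a partial copy that begins at the first base of Npm1 exon 6 (transcript base 687) and reaches the stop codon. It is identical to Npm1 at 409 of 411 aligned bases (99.5%). Gm15484 (ENSMUSG00000081865, chromosome 5, 110118022 to 110118849, minus strand) covers 94.2% of the coding sequence with 97.8% identity, and Gm5611 (ENSMUSG00000090602, chromosome 9, 17030045 to 17030896, plus strand) covers 96.9% with 97.5% identity. Gm7289, whose place is given with its counts, is 94.9% identical and ends at transcript base 992, the last base of Npm1 exon 9. Read from the Npm1 start codon, Gm15484 meets a stop after 22 codons and Gm7289 after 139, whereas no stop was found in that frame within the annotated part of Gm5611. That part ends at transcript base 1103, just before the stop codon of Npm1. Gm14681 lacks the part with the start codon.

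All 4 pseudogenes are shorter than Npm1 in the acidic stretch. Coding bases 460 to 579 of Npm1 and the matching bases of 3 pseudogenes are shown, with capitals marking bases that differ from Npm1 (those of Gm7289 are not shown):
Npm1: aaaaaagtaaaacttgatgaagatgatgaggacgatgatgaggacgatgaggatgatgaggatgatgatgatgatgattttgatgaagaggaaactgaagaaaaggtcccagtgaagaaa
Gm14681: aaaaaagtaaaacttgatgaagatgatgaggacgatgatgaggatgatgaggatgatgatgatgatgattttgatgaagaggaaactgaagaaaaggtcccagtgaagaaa
Gm5611: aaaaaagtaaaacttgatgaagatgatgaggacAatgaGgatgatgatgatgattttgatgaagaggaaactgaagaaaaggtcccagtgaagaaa
Gm15484: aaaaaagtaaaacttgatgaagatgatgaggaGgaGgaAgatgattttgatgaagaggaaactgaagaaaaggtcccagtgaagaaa
Within these 120 bases 9 are deleted in Gm14681, 24 in Gm5611, 33 in Gm15484 and 18 in Gm7289, each a multiple of 3. Of the 19 copies whose alignment spans the stretch, 14 were shorter than Npm1 there and 5 longer. The end of the coding sequence, coding bases 760 to 879, is shown as a second stretch, with the same use of capitals:
Npm1: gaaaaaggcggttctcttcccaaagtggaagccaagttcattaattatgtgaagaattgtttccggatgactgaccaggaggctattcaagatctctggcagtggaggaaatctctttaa
Gm14681: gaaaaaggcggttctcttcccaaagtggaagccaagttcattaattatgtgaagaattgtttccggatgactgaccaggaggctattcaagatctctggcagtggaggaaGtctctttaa
Gm5611: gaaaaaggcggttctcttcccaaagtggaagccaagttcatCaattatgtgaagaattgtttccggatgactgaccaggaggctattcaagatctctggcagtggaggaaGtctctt
Gm15484: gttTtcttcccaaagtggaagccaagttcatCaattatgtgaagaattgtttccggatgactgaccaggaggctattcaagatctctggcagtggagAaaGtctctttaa
In this second stretch Gm14681 has 1 differing base, Gm5611 has 2, and Gm15484 has 4 and lacks 10 bases at the start, so its line begins later. Over its whole length Gm15484 has 18 substitutions and 51 deleted bases, and Gm5611 has 21 substitutions and 24 deleted bases. The 2 substitutions of Gm14681, counted from the first base of the Npm1 coding sequence with the Npm1 base first, are A645G and A870G. The second is found in Gm5611 and Gm15484 too, and the first in Gm5611. T801C is shared by Gm5611 and Gm15484, and A267T and G654A by Gm15484, Gm5611 and Gm7289.

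These sequences bear on the counts, because a read that fits more than 1 place equally well is listed in the files as not unique and given to no gene. Of the 362 windows of 50 bases in Gm14681, 266 occur letter for letter in an Npm1 transcript. The same holds for 241 of 803 in Gm5611, 167 of 779 in Gm15484 and 90 of 685 in Gm7289. With 100-base windows the shares were 53.2% in Gm14681, 3.05% in Gm5611, 5.21% in Gm15484 and 0 in Gm7289. In the other direction, 78.1% of the 50-base windows of the Npm1 coding sequence, and 43.5% of its 100-base windows, occur in at least 1 of the annotated copies. The read length is not given in the sources used here. Reads listed as not unique made up 31.4% to 37.8% of all reads with doxycycline and 33.1% to 34.6% without it.

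Depth ran from 24391198 to 27341036 counts in genes per library. A filter on low counts left 14531 genes, among them 5 of the 7 members. Npm2 and Gm7289 were removed by it. The other pseudogenes passed through their counts without doxycycline. With doxycycline, 332 genes passed an adjusted p of 0.05, 140 higher and 192 lower (edgeR quasi-likelihood test), which is 2.28% of the genes tested (0.963% higher and 1.32% lower). That number was 1551 without the treated library of line 3, and 89, 117 and 182 without the untreated library of line 3, 4 and 5. Nothing in the labels says that the libraries of a line came from separate cultures, and p-values therefore measure the spread between lines with different hairpins, each of them 1 library per condition. Levels are counts per 1000000 counts in genes (CPM) on TMM-scaled library sizes. On library sizes before that scaling, 3 counts are 0.11 to 0.123 CPM. The epithelial markers Epcam, Cdh1, Krt8, Krt18, Krt19 and Cldn4 summed to 8898 to 10606 CPM with doxycycline and 10121 to 12107 CPM without it, and 1 of the 6, Cldn4, fell. Of 5 lung genes, Nkx2-1 and Sftpa1 had 0 counts in all 6 libraries, and Sftpc and Scgb1a1 had 0 or 1 in each. Sftpb had 3, 15 and 5 counts in lines 3, 4 and 5 with doxycycline, against 2, 3 and 0 without it. Blood cell markers moved with the treatment. Of 6 macrophage markers 5 rose, with a summed level of 104 to 235 CPM with doxycycline and 21.3 to 24.0 CPM without it. All 5 T lymphocyte markers fell, with a summed level of 0.033 to 0.0916 CPM with doxycycline, where Cd3d and Nkg7 had 0 counts, and 5.41 to 8.07 CPM without it. Their part in the levels of the nucleoplasmin genes was not tested, and in bulk RNA fewer cells of a type cannot be told apart from less RNA per cell.

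Npm1, the targeted gene, was lower with doxycycline in each line. It had 1481, 7409 and 10442 counts in lines 3, 4 and 5 with doxycycline, against 51996, 47240 and 50124 counts without it. In CPM these were 67.8, 244.7 and 399.7 with doxycycline, against 2002, 1851 and 1924 without it. The groups did not overlap, and the treated lines were spread widely while the untreated ones were close together: the standard deviation was 166 CPM around a mean of 237 CPM with doxycycline and 75.4 CPM around 1926 CPM without it (n = 3 each). Groups that do not overlap and are lower with doxycycline were found for 11.2% of all genes tested. The ratio of the level with doxycycline to that without it was 0.0339 in line 3 (95% exact counting interval 0.0321 to 0.0357), 0.132 in line 4 (0.129 to 0.135) and 0.208 in line 5 (0.203 to 0.212). These intervals cover counting error only, and no line had a second culture against which the differences between lines could be set. The fitted log2 fold change was -3.02 (SE 0.49), and it was -2.55 without line 3 and -3.63 without line 5.

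Among all genes tested, ranked by level per length (RPKM, CPM per 1000 bases of the longest annotated transcript), Npm1 stood at place 1866, 479 and 314 in lines 3, 4 and 5 with doxycycline, against 70, 70 and 75 without it, of 14496 tested genes with a transcript length. Even in line 3 it thus remained in the upper part of the list.

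Npm3, the paralog with the short acidic stretch, showed no common direction. It had 80.2, 84.9 and 53.2 CPM in lines 3, 4 and 5 with doxycycline, against 71.5, 69.4 and 76.4 CPM without it. The groups overlapped. On the TMM-scaled sizes the treated libraries of lines 3 and 4 were above all untreated ones and that of line 5 below them. The means were 72.8 ± 17.1 CPM with doxycycline and 72.4 ± 3.59 CPM without it (SD, n = 3 each). The fitted log2 fold change was 0.01 (SE 0.17), and it ranged from -0.15 to 0.22 over the alternatives tried, changing sign under 9 of 15. Its ratios within the lines were 1.12 (95% exact counting interval 1.05 to 1.20) in line 3, 1.22 (1.15 to 1.30) in line 4 and 0.697 (0.650 to 0.747) in line 5. These intervals cover counting error only and take the TMM scaling as exact. An antisense gene, Gm15491, overlaps Npm3 by 84 bases and had 0 to 3 counts in any library.

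Npm2, the oocyte member, had few counts in all libraries. It had 6, 4 and 2 counts in lines 3, 4 and 5 with doxycycline, against 1, 3 and 5 counts without it. These sum to 12 counts with doxycycline and 9 without it, a ratio of summed counts, scaled for depth, of 1.32 with an exact 95% interval of 0.511 to 3.55 that covers counting error only. The treated library was higher in lines 3 and 4 and lower in line 5, each on 6 counts or fewer. The gene's interval overlaps that of Xpo7, an exporter of proteins from the nucleus on the same strand, over 4999 bases, and Xpo7 had 1146 to 1742 counts with doxycycline and 1408 to 1657 without it. Of 6 oocyte markers, Zp3, Zar1, Dppa3, Nlrp5 and Bmp15 had 0 counts in all 6 libraries and Gdf9 had 1 to 10 in each.

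**Figure D1:**
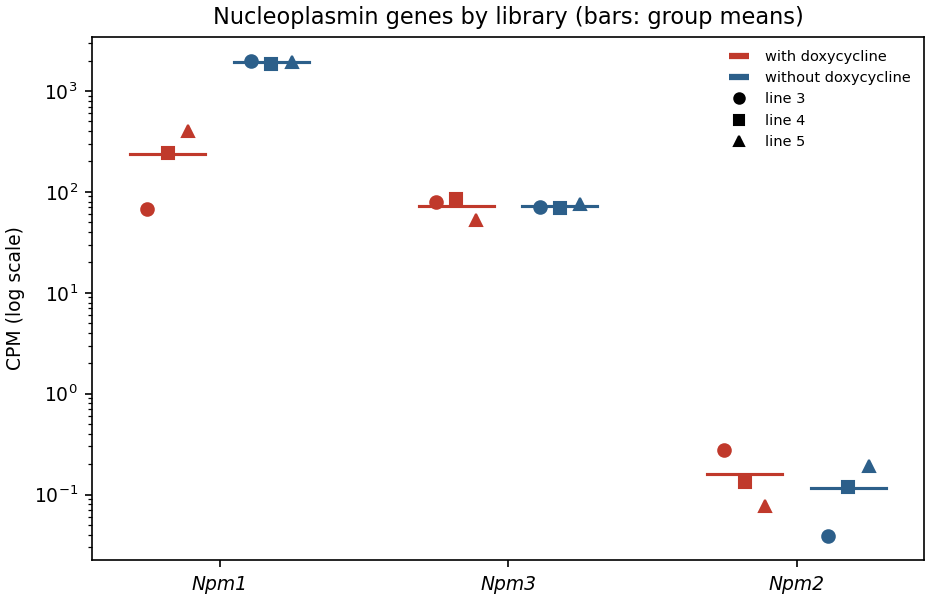
CPM of the 3 nucleoplasmin genes in each library on a log scale, with doxycycline in red on the left and without it in blue on the right of each pair. Symbols mark lines 3, 4 and 5 and bars the group means. Npm1 is lower in the 3 treated libraries, Npm3 overlaps between groups and Npm2 lies below 0.3 CPM in all 6.

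The make-up of the family was next compared per length. With doxycycline Npm1 was at 41.5, 149.9 and 244.8 RPKM in lines 3, 4 and 5, and without it at 1226, 1134 and 1179 RPKM. Npm3 was at 90.3, 95.6 and 59.9 RPKM with doxycycline and at 80.5, 78.1 and 86.0 RPKM without it. Npm2 did not exceed 0.276 RPKM in any library. Without doxycycline the order of levels was therefore Npm1, Npm3, Npm2 in all 3 lines. With it the same order held in lines 4 and 5, while in line 3 the level of Npm3 was above that of Npm1. Reads that fit Npm1 and a copy equally well were given to no gene. What this took from the Npm1 level was not measured, nor was any such loss for Npm3. Npm1 made up 31.4%, 61.0% and 80.3% of the summed RPKM of the family in lines 3, 4 and 5 with doxycycline, against 93.8%, 93.5% and 93.2% without it, or 57.6% ± 24.6 with doxycycline and 93.5% ± 0.327 without it (SD, n = 3 each). The sum itself was 227 ± 87.8 RPKM with doxycycline and 1261 ± 47.4 RPKM without it (SD, n = 3 each).

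**Figure D2:**
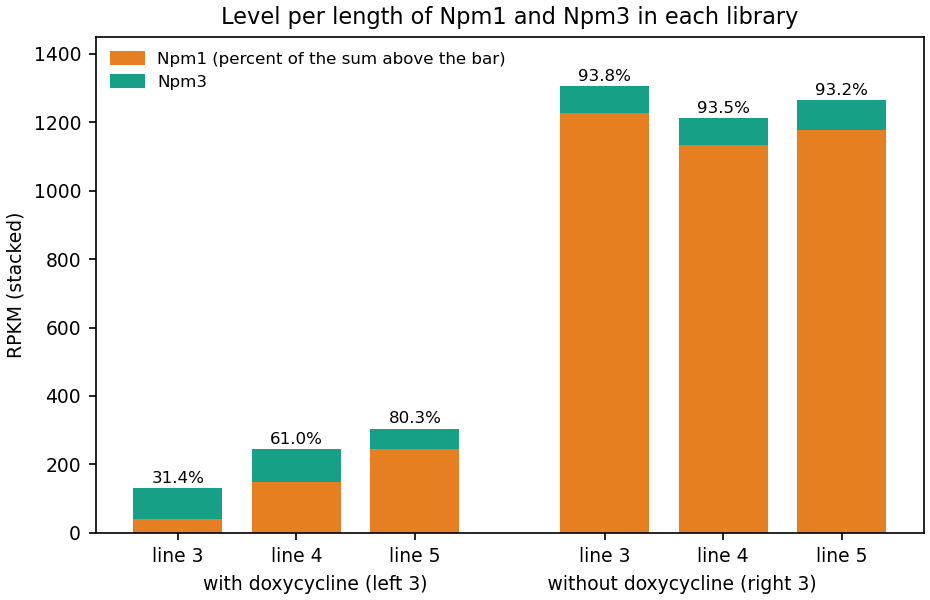
Stacked RPKM of Npm1 (orange) and Npm3 (green) in each library, treated lines on the left and untreated lines on the right, with the share of Npm1 in the family sum printed above each bar. Npm2, at most 0.276 RPKM, is too low to be drawn. The Npm1 share runs from 31.4% to 80.3% in the treated libraries and lies between 93.2% and 93.8% in the untreated ones.

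The 4 pseudogenes were lower with doxycycline in each line, and none of their groups overlapped. Of all genes tested, 11.2% were lower without overlap, and 3 of the 4 pseudogenes entered that test through their untreated counts while Gm7289 did not enter it, so nothing is read from this count. Gm14681, the near-identical copy of the second part of the coding sequence, had 14, 38 and 24 counts in lines 3, 4 and 5 with doxycycline, against 255, 251 and 295 counts without it. Its level was 0.938 ± 0.308 CPM with doxycycline and 10.3 ± 0.865 CPM without it (SD, n = 3 each), a fitted log2 fold change of -3.43 (SE 0.27). Here line 4 was the highest treated library and line 3 the lowest, whereas Npm1 was highest in line 5. Gm5611, the copy with no stop found in frame within its annotated part, had 3, 9 and 5 counts with doxycycline, against 48, 33 and 40 counts without it. Gm15484 had 1, 7 and 7 counts with doxycycline, against 36, 31 and 29 without it. Gm7289 (ENSMUSG00000092056, chromosome 18, 84658932 to 84659844, minus strand) had 1, 4 and 1 counts with doxycycline, against 15, 17 and 10 without it. Line 3 had the fewest treated counts of each of the 4 pseudogenes, level with line 5 for Gm7289. The fitted log2 fold changes were -2.83 (SE 0.40) for Gm5611, -2.68 (SE 0.47) for Gm15484 and -2.78 (SE 0.70) for Gm7289, the last from a fit with no filter on low counts, which gave -3.56 without the treated library of line 4.

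Gm15484 lies wholly within the interval of Zfp605, a zinc finger gene on the opposite strand. The search with the Npm1 transcript also matched an annotated transcript of Zfp605. Zfp605 was at 8.97, 9.38 and 10.9 CPM in lines 3, 4 and 5 with doxycycline, against 10.8, 8.19 and 8.64 CPM without it, and its edgeR adjusted p was 0.875 at a log2 fold change of 0.08 (SE 0.18). No source used here states the strand setting of the counting, and reads of this pair of genes may not have been told apart.

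The share of pseudogene counts relative to Npm1 counts was computed in each library. Gm14681 had 9.45, 5.13 and 2.30 counts per 1000 Npm1 counts in lines 3, 4 and 5 with doxycycline, against 4.90, 5.31 and 5.89 without it. The 95% exact counting intervals, which cover counting error only, were 5.16 to 15.9, 3.63 to 7.05 and 1.47 to 3.42 with doxycycline and lay within 4.32 to 6.60 without it. The treated library of line 5 was below the 3 untreated libraries, that of line 4 was among them, and that of line 3 was above them. Gm15484 had ratios of 0.675, 0.945 and 0.670 per 1000 with doxycycline, against 0.692, 0.656 and 0.579 without it. The treated value of line 3 rests on 1 count, with an interval of 0.0171 to 3.77. Gm5611 had 2.03, 1.21 and 0.479 per 1000 with doxycycline, against 0.923, 0.699 and 0.798 without it. Gm7289 had 0.675, 0.540 and 0.0958 per 1000 with doxycycline, against 0.288, 0.360 and 0.200 without it. Summed over the 4, the ratio was 12.8, 7.83 and 3.54 per 1000 in lines 3, 4 and 5 with doxycycline. The exact counting intervals were 7.70 to 20.1, 5.94 to 10.1 and 2.49 to 4.89. Without doxycycline the summed ratio was 6.81, 7.03 and 7.46, with intervals within 6.12 to 8.26. The means were 8.07 ± 4.65 per 1000 with doxycycline and 7.10 ± 0.332 without it (SD, n = 3 each), and the group means differed by less than the spread between treated lines.

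**Figure D3:**
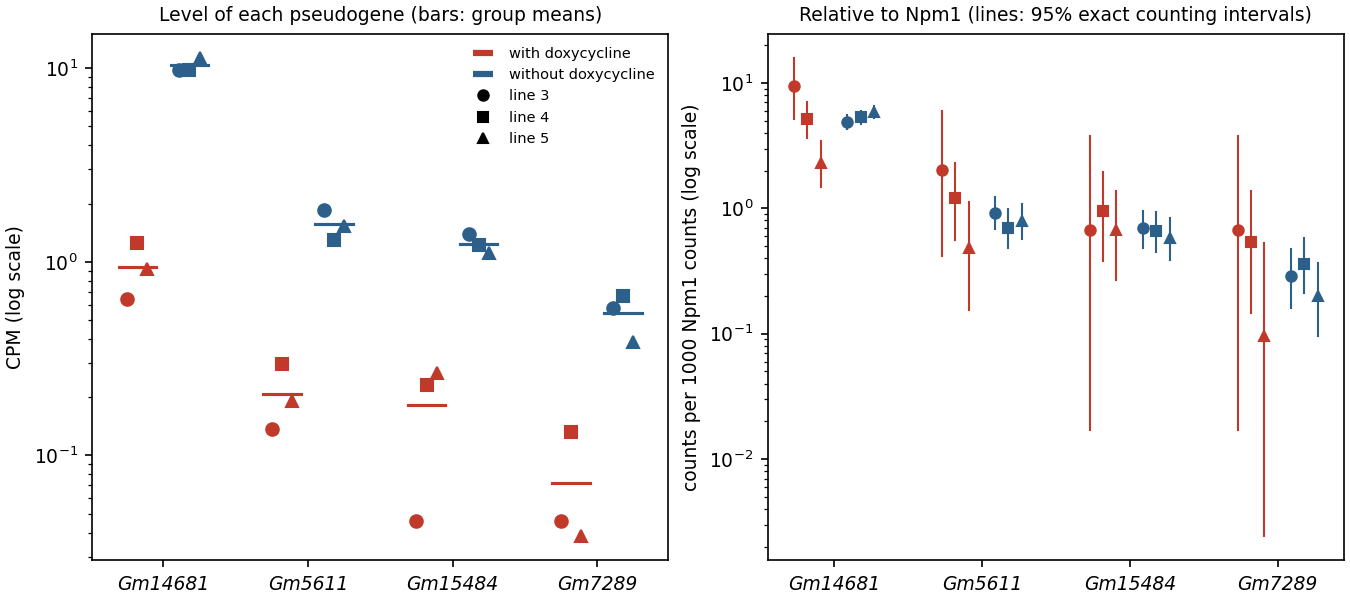
Left, CPM of the 4 pseudogenes in each library on a log scale, with bars at group means. Right, their counts per 1000 Npm1 counts on a log scale, with lines for 95% exact counting intervals. Red is with doxycycline, blue without it, and symbols mark lines 3, 4 and 5. The CPM groups do not overlap for any of the 4. The ranges of the ratios to Npm1 overlap for all 4, with a wider spread among treated libraries. For Gm14681, Gm5611 and Gm7289, treated libraries lie both above and below the untreated ones. The treated library of line 5 is low for Gm14681.

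Set beside the other annotated copies, the members also held most of the counts. They were selected on their CPM, so this is a description and may follow from that choice. The 11 other processed copies in the files had 0, 5 and 5 counts in all in lines 3, 4 and 5 with doxycycline, against 17, 10 and 9 without it, while the 4 members had 19, 58 and 37 counts with doxycycline, against 354, 332 and 374 without it. Gm12583, 94.2% identical to Npm1, had 3 counts with doxycycline and 15 without it, and Gm17060, also 94.2% identical, had 1 with doxycycline and 9 without it. Of the 11, 4 had 0 counts in all 6 libraries, and no other copy outside the members exceeded 6 counts in a group. Counts did not follow the length of sequence that could be told from Npm1. Gm14681 has 96 windows of 50 bases that differ from Npm1 and had 801 counts without doxycycline, whereas Gm5611, Gm15484 and Gm7289 have 562, 612 and 595 such windows and had 121, 96 and 42 counts without doxycycline.

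**Figure D4:**
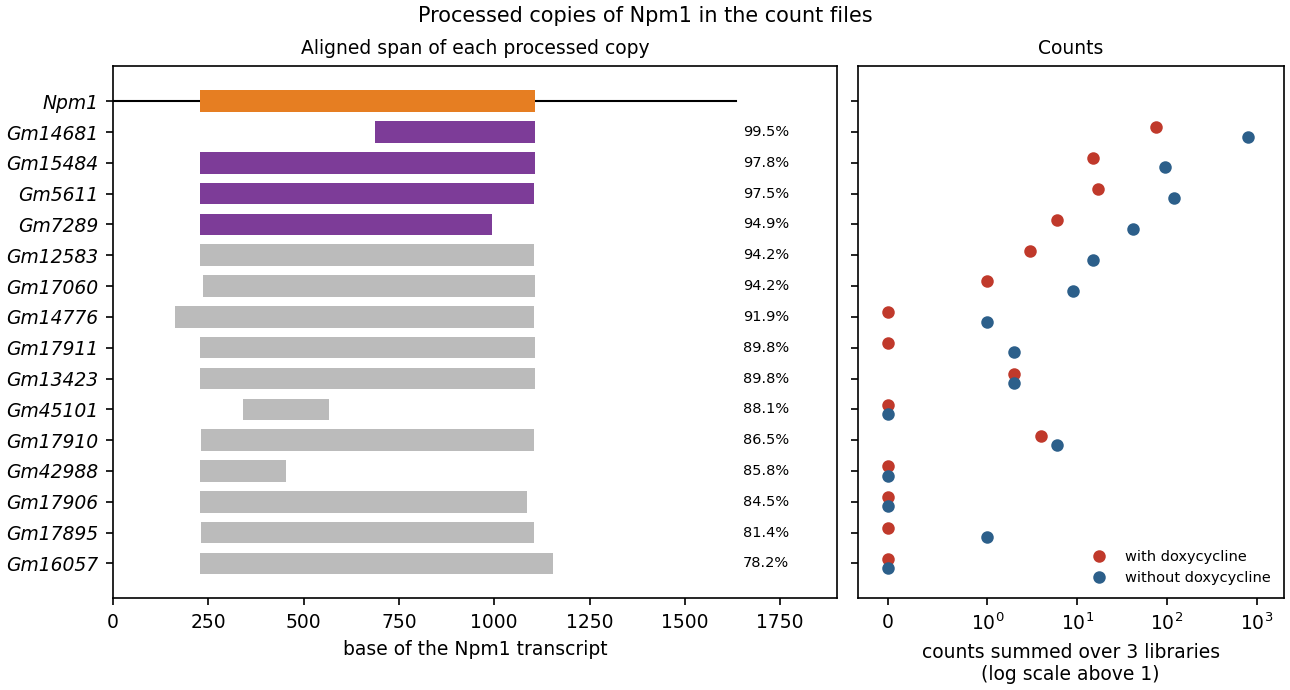
Left, the part of the Npm1 transcript to which each processed copy in the count files aligns, with percent identity at the right edge of the panel; Npm1 is at the top with its coding sequence in orange, members are purple and other copies grey. Right, counts summed over the 3 libraries with doxycycline (red) and without it (blue), on a scale that is logarithmic above 1. The 4 members, which were selected on their CPM, are the most identical copies and have the most counts, from 42 to 801 without doxycycline.

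To see which genes had a pattern most like that of the nucleoplasmins, log2 CPM (with 0.5 CPM added) was compared over the 6 libraries among 10197 genes with a mean of at least 5 CPM. Left out of the ranking were members, other copies of Npm1, mitochondrially encoded genes, and genes with no symbol or only a clone name. These libraries share cells and a depth range and form a treated and an untreated group, so a high value with Npm1 mostly records that split. Npm3 has no such split, and its 5 closest genes were each lowest in the treated library of line 5, as Npm3 was. The 5 genes closest to Npm1 were Dennd3, Cyb561a3, Tldc1, Evi2a and Naip2, with Pearson coefficients of 0.984 to 0.988. Their ranges were far smaller than that of Npm1. Cyb561a3, a cytochrome b561 family member, was at 25.0, 31.6 and 38.4 CPM in lines 3, 4 and 5 with doxycycline, against 53.5, 49.9 and 47.4 CPM without it. Naip2, an inflammasome sensor, was at 30.8, 38.7 and 41.9 CPM with doxycycline, against 48.5, 48.0 and 47.7 CPM without it. Of the pseudogenes, Gm15484 was the closest to Npm1 (0.975) and Gm7289 the least close (0.876). The 5 genes closest to Npm3 were Borcs7, Smagp, Nrbp1, Fbxl15 and Slc25a23 (0.968 to 0.979). Smagp, a small transmembrane glycoprotein, was at 113.9, 112.7 and 66.1 CPM in lines 3, 4 and 5 with doxycycline, against 99.5, 99.0 and 102.6 CPM without it, so the treated library of line 5 stood below the others as it did for Npm3. Npm1 and Npm3 themselves had a coefficient of -0.21.

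Genes that work with Npm1 were compared in 4 lists. None of the 97 genes tested passed in the fit across all genes, where 2.28% of genes did, and 10 had an unadjusted p under 0.05 by edgeR, as did 16.3% of all genes tested. DESeq2, which called 4.95% of all genes, and limma-voom, which called 2.33%, called 0 in each list too. Of 32 nucleolar partners (ribosome assembly factors, RNA polymerase I subunits and ribosomal proteins that bind Npm1) 21 were above 0, with a median log2 fold change of 0.11 against 0.00 for all genes tested. Of all 14531 genes tested 7326 were above 0, and whether a list differs from this was not tested. Nop58, a core protein of box C/D small nucleolar particles, was at 365, 343 and 394 CPM in lines 3, 4 and 5 with doxycycline, against 282, 263 and 295 CPM without it and the edgeR adjusted p was 0.16 (log2 fold change 0.39, SE 0.13). Its groups did not overlap, as for 22.6% of all genes tested in either direction. Wdr12, of the PeBoW complex that processes the large subunit RNA, averaged 95.4 ± 8.18 CPM with doxycycline and 75.3 ± 6.31 CPM without it (SD, n = 3 each, edgeR adjusted p = 0.211).

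The 22 histone chaperones outside the nucleoplasmin family had a median of 0.10, and 16 were above 0, as were 7326 of all 14531 genes tested. Asf1a, which carries histones H3 and H4, averaged 59.0 ± 4.55 CPM with doxycycline and 45.1 ± 4.28 CPM without it (SD, n = 3 each; log2 fold change 0.39, SE 0.13, edgeR adjusted p = 0.167). Chaf1b, a subunit of chromatin assembly factor, averaged 28.0 ± 5.09 CPM with doxycycline and 21.4 ± 3.42 CPM without it (edgeR adjusted p = 0.319). Among 15 regulators around ARF, p53 and MYC the median was 0.01, and 9 were above 0. Trp53, the gene of p53, was at 10.8, 11.0 and 11.1 CPM in lines 3, 4 and 5 with doxycycline, against 8.09, 8.35 and 7.60 CPM without it (log2 fold change 0.45, SE 0.16, edgeR adjusted p = 0.192). Its groups did not overlap, and 11.3% of all genes tested were likewise higher with doxycycline without overlap. Cdkn1a, the cell cycle inhibitor p21 and a p53 target, was at 41.7, 14.2 and 16.5 CPM with doxycycline, against 46.8, 54.5 and 39.9 CPM without it, with the treated libraries of lines 4 and 5 below all others and the edgeR adjusted p was 0.195 (log2 fold change -0.97, SE 0.34); it passed without the treated library of line 3. The 28 enzymes that modify Npm1 and proteins that carry it had a median of 0.10, and 18 were above 0. Cyclin E1 (Ccne1), whose complex with Cdk2 phosphorylates Npm1 at centrosomes, averaged 12.7 ± 3.03 CPM with doxycycline and 8.62 ± 0.861 CPM without it (edgeR adjusted p = 0.205), and Sumo2 20.1 ± 1.32 CPM with doxycycline and 15.4 ± 1.31 CPM without it (SD, n = 3 each, edgeR adjusted p = 0.219).

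These counts of 0 changed when the treated library of line 3 was left out, and the one of regulators also with no filter on low counts, where Cdkn1a was called and 3.9% of all genes were. Without the treated library of line 3, the line with the least Npm1, 1551 genes (10.4%) were called in all, and in the lists 7 nucleolar partners (3 higher, 4 lower), 2 histone chaperones (higher), 4 modifiers and carriers (higher) and Cdkn1a (lower) were called. The counts of 2 of 22, 4 of 28 and 1 of 15 are near the share of all genes called in that fit, and 7 of 32 is above it by a difference that was not tested. Without both libraries of line 3, where 4.5% of all genes were called, Cdkn1a and 2 nucleolar partners were called. In line 3 the ribosomal protein gene Rpl23 was at 1539 CPM with doxycycline, against 730 and 756 CPM in lines 4 and 5 with doxycycline and 1117 to 1209 CPM without it.

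**Figure D5:**
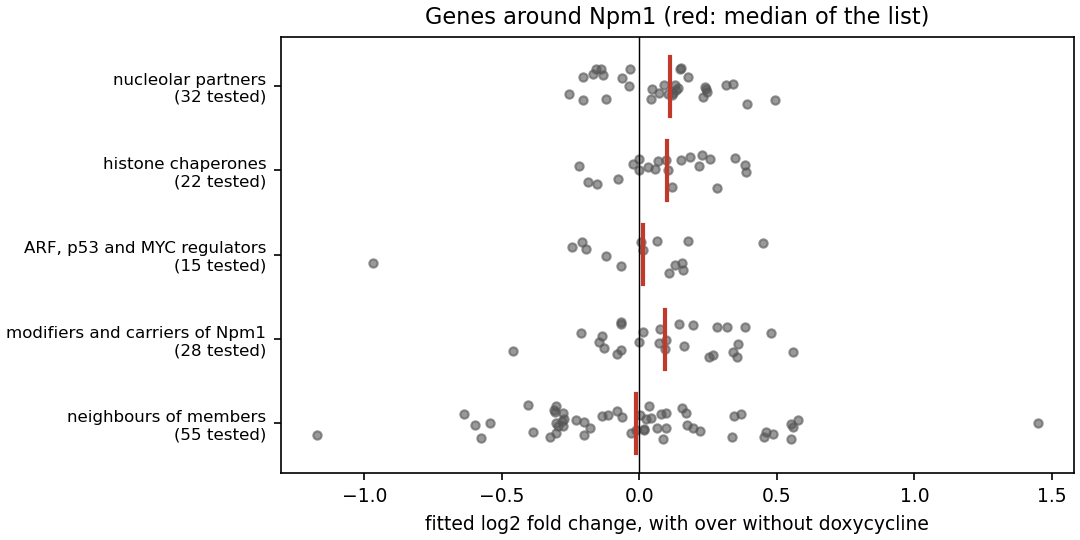
Fitted log2 fold change, with over without doxycycline, of each tested gene in 4 lists around Npm1 and of the genes within 500 kb of a member; red lines are medians. Medians lie between -0.01 and 0.11, and Cdkn1a, at -0.97, is the lowest point of the 4 lists. Vertical scatter within a list carries no information.

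Genes near the members were examined by position alone. Within 500 kb of a member 147 other genes of the files were annotated, and 55 were tested, around Npm1, Npm2, Npm3, Gm15484 and Gm7289. None passed, and 9 had an unadjusted p under 0.05 by edgeR, near the 16.3% of all genes. Without the treated library of line 3, 6 passed, near the 10.4% of all genes called in that fit. In the full set the median log2 fold change was -0.01. Fgf18, a growth factor gene 4887 bases from Npm1, averaged 0.503 ± 0.166 CPM with doxycycline and 0.724 ± 0.222 CPM without it (SD, n = 3 each, edgeR adjusted p = 0.558). Mgea5, the enzyme that removes O-GlcNAc from proteins and the nearest tested gene to Npm3 at 668 bases, averaged 83.3 ± 10.4 CPM with doxycycline and 102 ± 7.55 CPM without it (edgeR adjusted p = 0.302). Xpo7 at Npm2 averaged 57.9 ± 7.69 CPM with doxycycline and 59.1 ± 5.42 CPM without it (edgeR adjusted p = 0.946). Cndp2, a dipeptidase gene next to Gm7289, averaged 54.9 ± 21.7 CPM with doxycycline and 71.8 ± 5.41 CPM without it (edgeR adjusted p = 0.486). DESeq2 and limma-voom, which called 4.95% and 2.33% of all genes, each called 1 of the 55 neighbours, Hr, a corepressor gene near Npm2. Hr averaged 3.16 ± 1.02 CPM with doxycycline and 7.10 ± 0.321 CPM without it (SD, n = 3 each, log2 fold change -1.17, SE 0.27, edgeR adjusted p = 0.0516). Hr is named here because these tools called it, after its values were seen.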

How the data were processed

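The authors deposited raw counts of reads for each Ensembl gene, as whole numbers and not normalized. The submitters' processing notes name CASAVA, STAR, Picard, HTSeq, DESeq2, bedtools, R 3.3.0 and build mm10. No source used here gives the annotation release, read length or strand setting. The 5 rows of each file that name no gene (43.7% to 47.7% of reads) entered neither library sizes nor tests. Symbols, coordinates, lengths and transcript sequences came from GENCODE M21 of the same build and covered 48144 of 48526 identifiers. The quasi-likelihood F test of edgeR 4.0.16 (R 4.3.3) was run after filterByExpr and TMM scaling, with Benjamini-Hochberg adjustment over 14531 genes and a common biological coefficient of variation of 18.0%. An SE is the absolute log2 fold change over the square root of its F value. Copies of Npm1 were found with blastn 2.17.0 (E value at most 1e-20) and aligned base by base with Biopython 1.88, counting identity over aligned bases without gaps.

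Replicates were not duplicates (chi-square of counts per degree of freedom 7.86 or more). Both libraries of a number are from 1 stable line, which pairs them. As a check, the correlation over genes of their departures from their group's mean was 0.0535, 0.0961 and 0.0301 in lines 3, 4 and 5. Pairs from different lines gave -0.117 to 0.0649, a range that holds the values of lines 3 and 5. The check thus did not tell pairs of a line from other pairs, and the pairing rests on the lines. The main fit had no block for the line. The members, the gene lists and the comparisons were chosen with earlier results of these data known. Named genes were the 7 members, the 5 genes most like Npm1 and the 5 most like Npm3, the 2 genes of smallest p in each list where none passed, and the nearest tested neighbour of each member; Rpl23 and Hr were added after their values were seen. Alternatives were RLE scaling, no filter, the replicate block, DESeq2 1.42.0, limma-voom (limma 3.58.1), total counts, 0.1 CPM in place of 0.5 CPM before log2 ratios, exon union lengths, 200 kb, and each library or line left out. The fits were tested on simulated data with known changes.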

Additional observations from a re-analysis of the deposited data

Results flagged for a closer look

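Npm3 was picked out because its lines moved in opposite directions. Its ratio of the level with doxycycline to that without it was 1.12 in line 3 and 1.22 in line 4, and 0.697 in line 5. Each is from 1 library against 1 library on TMM-scaled sizes. The exact intervals leave out 1, cover counting error only and take that scaling as exact. Line 3 had 1751 Npm3 counts of 24391198 in genes with doxycycline and 1856 of 26756552 without it. Whether its interval leaves out 1 on total counts was not tested. With 1 library per line and condition the difference between lines was not tested, and whether it exceeds the variation between cultures of a line was not tested either.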

How the results depend on the processing

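The number of genes called, 332, became 1052 with no filter and 720 with DESeq2, and it ranged from 62 to 1551 when a library or line was left out (89, 117 and 182 without the untreated library of line 3, 4 and 5; 1551 without the treated library of line 3; 664, 62 and 197 without both libraries of line 3, 4 and 5). With the line as a replicate block it was 243, and the block called 0 genes in each list and among the neighbours. With a library or line left out, calls ranged from 0 to 2 of 22 histone chaperones and 0 to 7 of 32 nucleolar partners. They ranged from 0 to 1 of 15 ARF, p53 and MYC regulators and 0 to 4 of 28 modifiers and carriers. For neighbours they ranged from 0 to 6. Each highest count was reached without the treated library of line 3, where 55 neighbours were tested and 10.4% of all genes were called. With no filter, which called 3.9% of all genes, 1 of 15 regulators (Cdkn1a) and 3 of 96 neighbours were called. DESeq2, at 4.95% of all genes, and limma-voom, at 2.33%, each called 1 of 55 neighbours. The causes were not tested. The fitted log2 fold changes of Npm1, Gm14681, Gm5611, Gm15484 and Gm7289 were negative under all alternatives run; those of Npm3 and Npm2 were not, at -0.15 to 0.22 and -0.14 to 0.96. With 0.1 CPM added in place of 0.5 CPM the mean log2 ratio within lines was -3.37 for Gm14681, -2.45 for Gm5611, -2.35 for Gm15484 and -1.92 for Gm7289, against -2.93, -1.54, -1.36 and -0.86. With exon union lengths the Npm1 share of the family was 53.5% with doxycycline and 92.2% without it. Without 1 library it ranged from 46.2% to 70.7% with doxycycline and from 93.4% to 93.7% without it. The pseudogene ratio ranged from 5.69 to 10.3 per 1000 with doxycycline and from 6.92 to 7.24 without it. Npm2 and Gm7289 had few counts, 21 and 48 in all, and the reason was not tested.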
